A study of Mus musculus with 4 samples.

Results

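The hypoxia response genes Hif1a, Hif3a, Egln1, Egln3, Vegfa, Adm, Bnip3, Ddit4, Ndrg1 and Ankrd37 were followed in mouse hearts with and without the microRNA miR-1. They were chosen by name, with earlier results of these data known, and all 10 were present among the 22552 gene rows of each deposited table. The hearts came from mice of the strain Sv129 at postnatal day 2.5 (P2.5) and at embryonic day 15.5 (E15.5). At each stage 1 library came from a miR-1s dKO heart, lacking miR-1-1 and miR-1-2, and 1 from a littermate control labelled dHET. The E15.5 table calls its control column WT, so the control genotype at that stage is not certain. How many animals went into a library, and how the alleles were made, is not given in the sources used here. Values are FPKM, fragments per kilobase of transcript, scaled to sequencing depth, and with 1 library per group no difference between genotypes or stages could be tested.

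Cells sense oxygen through prolyl hydroxylases, the products of the Egln genes, which mark the alpha subunits of hypoxia-inducible factor (HIF) for destruction while oxygen is present. When oxygen is short the alpha subunit persists, pairs with Arnt and raises genes for blood vessel growth, glycolysis, mitochondrial removal and reduced protein synthesis. In the heart this pathway is known for coronary vessel formation and for the low-oxygen environment before birth, and much of its control acts on HIF protein rather than on its messenger RNA.

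The scaling totals recovered from the steps of low FPKM values were 44600000 to 104000000 fragments. All 8 cardiomyocyte markers were at 1 FPKM or more in all 4 libraries, and all 17 markers of skeletal muscle, lung, liver and thymus were under 1 FPKM. Of 3 brown fat markers Cidea stood at 14.5 FPKM (dHET) and 19.1 (dKO) in the P2.5 pair and at 2.04 and 2.29 in the E15.5 pair, while Ucp1 and Adipoq were under 1 FPKM in all 4. The P2.5 pair differed in sex as well as genotype, where Xist was 0.101 FPKM for dHET against 50.7 for dKO, and Ddx3y 11.7 against 0. Both E15.5 libraries held Ddx3y, at 15.3 and 14.8 FPKM. Over all genes with at least 1 FPKM in either library, the median change at P2.5 was 0.066, and it was -0.091 once each library was scaled to sum to 1000000. The cardiomyocyte markers summed to 21973 FPKM in the P2.5 dHET library and 29257 in its dKO partner.

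MiR-1 pairs through its seed with the words ACATTCC and CATTCCA in 3' UTRs, and each member's longest 3' UTR in the annotation was searched for them (GENCODE transcripts on NCBIM37, the assembly of mm9). Of the 10 members, 8 held neither word. Vegfa held a match of 7 bases, and Ndrg1 held a match of 7 bases and another of 8 bases (ACATTCCA). The 3 sites are shown because they are the stretches of these messenger RNAs that carry letters complementary to the seed. Capitals mark the match, and each window is read 5′ to 3′ along the messenger.
Vegfa, minus strand of chr17:46154350-46154374, last exon: tgtccccaccacACATTCCtttgaa
Ndrg1, minus strand of chr15:66761706-66761730, last exon: gtaccccgctccCATTCCAcagtga
Ndrg1, minus strand of chr15:66761326-66761350, last exon: ttgggttctgtACATTCCAcgggaa
Of 19915 genes with an annotated 3' UTR, 15.6% held at least 1 of the 7-base words and 3.46% held the word of 8 bases. A match of letters is a description and does not show that a site is used.

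HIF binds DNA at a core that includes ACGTG. In the 250 bases before the start site (RefSeq, GRCm38.p6), ACGTG was found on either strand in 7 of the 9 members with a promoter sequence, against 18.5% of 27025 genes. The related core GCGTG was also found in 7 of 9, against 30.9% of genes. A gene counted if any of its start sites had the word, and Ndrg1 was the member without a promoter sequence. The members were picked as hypoxia response genes, so a share above that of all genes is no test. A window around ACGTG is shown for the 7 members, to set the shared letters beside RNA levels that differed from member to member. Capitals mark the match on the gene's own strand, where CACGT is ACGTG read on the other strand. Where the palindrome CACGTG held both overlapping matches (Hif1a and Bnip3), ACGTG is the match in capitals.
Hif1a, chr12:73907721-73907749, plus strand: acacagacaagcACGTGagcggggcagct
Egln1, chr8:124949306-124949334, minus strand: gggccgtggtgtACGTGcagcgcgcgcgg
Egln3, chr12:54204087-54204115, minus strand: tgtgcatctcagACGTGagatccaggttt
Vegfa, chr17:46025358-46025386, minus strand: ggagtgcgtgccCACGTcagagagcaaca
Bnip3, chr7:138909597-138909625, minus strand: cgcacgcgccgcACGTGccacacgctccc
Ddit4, chr10:59951941-59951969, minus strand: agaacgttgcgaACGTGcgcccggtgcct
Ankrd37, chr8:46000075-46000100, minus strand: cccagcagtACGTGcctagctcggct
Adm and Hif3a held GCGTG but not ACGTG in this window. The Vegfa match lies before the second of its start sites in the table.

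The members spanned a wide range of levels, from the abundant Vegfa to the scarce Ankrd37 and Adm. Vegfa had the highest FPKM of the 10 in all 4 libraries, between 66.8 and 78.6, followed by Hif1a, between 41.4 and 61.1. Egln1 came next in 3 of the libraries, and in the E15.5 dKO library Hif3a stood between Hif1a and Egln1. Adm and Ankrd37 lay between 3.31 and 5.44 FPKM in all 4, which corresponds to about 147 fragments for Ankrd37 in the P2.5 dHET library and about 530 for Adm in the E15.5 dKO library.

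**Figure D1:**
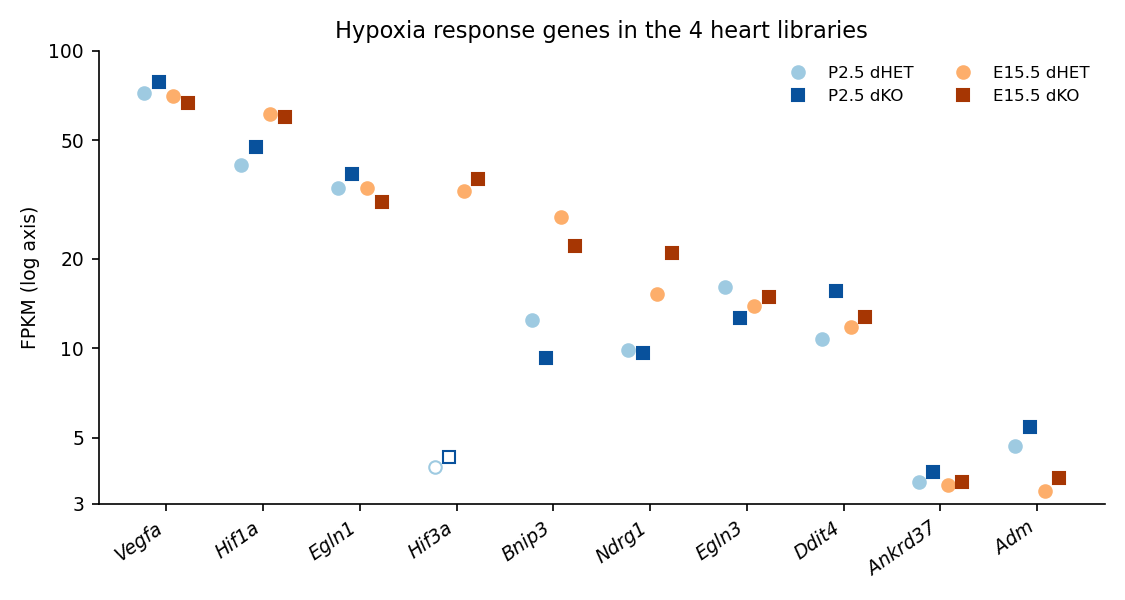
FPKM of the 10 hypoxia response genes (log axis) in each of the 4 libraries, 1 point per library; circles are dHET, squares dKO, blue P2.5 and orange E15.5, and open points mark Hif3a at P2.5, whose row the authors' table flags as failed. Within a stage the dHET and dKO points lie less than 1.5-fold apart, farthest for Ddit4 at P2.5 and for Ndrg1 at E15.5. Bnip3, Ndrg1 and Hif1a lie lower at P2.5 than at E15.5 in both genotypes, as do the open points of Hif3a.

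The comparison of genotypes asked whether hearts without miR-1 differ in these RNAs. At P2.5 none of the 9 members with a usable value was 1.5-fold apart between dKO and dHET, nor was any of the 10 at E15.5. The share of all genes past 1.5-fold in either direction was 4.73% of 11703 at P2.5 and 1.21% of 11709 at E15.5, so a count of 0 among so few members is near the background. Changes are log2((FPKM dKO + 1)/(FPKM dHET + 1)), which understates the change of low genes. At a lower mark of 0.322 on the log2 scale the members' count was 3 of 9 for P2.5 and 1 of 10 for E15.5, against 23% and 5.76% of genes. The members' median was 0.12 in the P2.5 pair and 0.058 in the E15.5 pair, beside 0.066 and -0.0078 over all genes tested. At P2.5 6 members lay above 0 and 3 below, a split that turned to 3 and 6 after rescaling to a common sum. At E15.5 it was 6 and 4 under both. Before rescaling, 60.7% of all genes tested lay above 0 at P2.5 and 47.6% at E15.5. With so few members, these splits are near the background. No member is called significant in the authors' deposited tables, against 0.406% of tested rows for P2.5 and 0.936% for E15.5; those calls compare 2 libraries, not genotypes. The standard error implied by the authors' deposited fold change and statistic had a median over the members of 0.31 for P2.5 and 0.17 for E15.5.

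**Figure D2:**
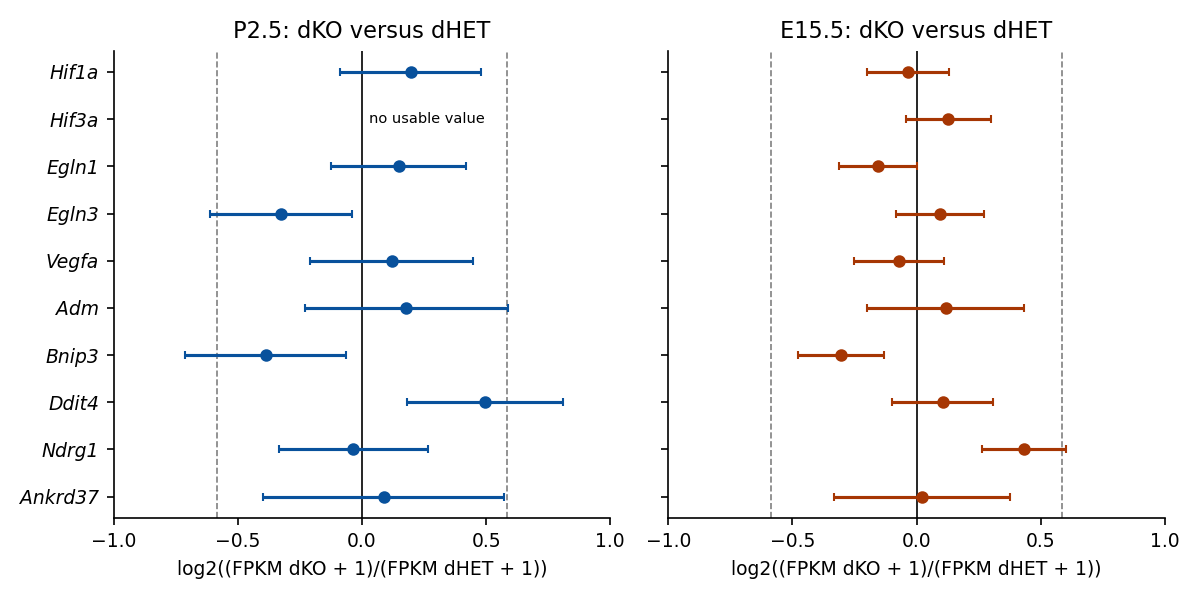
Change of each member between the dKO and dHET library at P2.5 (left) and E15.5 (right), as log2((FPKM + 1)/(FPKM + 1)); bars are 1 standard error on either side as implied by the authors' deposited test of the 2 libraries, and dashed lines mark 1.5-fold. The bars belong to the authors' log2 fold change, which is taken without the added 1 FPKM, so their scale differs slightly from that of the points. No point lies beyond a dashed line, and Ddit4 at P2.5 (0.49) and Ndrg1 at E15.5 (0.43) lie farthest to the right.

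Among the oxygen sensors, Egln1 (chromosome 8, 127432487 to 127473154, mm9) encodes PHD2, the main hydroxylase of HIF alpha subunits. The P2.5 libraries held 34.7 FPKM (dHET) and 38.6 FPKM (dKO), and those of E15.5 held 34.7 and 31.1. The dKO library was thus the higher one at P2.5 (0.15) and the lower one at E15.5 (-0.15), and the P2.5 value turned to -0.021 after rescaling to a common sum. Egln3, which encodes PHD3 and is itself induced by HIF, stood at 16.1 FPKM (dHET) and 12.7 (dKO) in the P2.5 pair and at 13.8 and 14.9 in the E15.5 pair. Its dKO value was below control at P2.5 (-0.33) and slightly above at E15.5 (0.095), beside standard errors implied by the authors' deposited tables of 0.29 and 0.18. The FPKM ratio of Egln1 to Egln3 ran from 2.09 in the E15.5 dKO library to 3.04 in the P2.5 dKO library, and both control libraries lay between these.

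Of the HIF alpha subunits, Hif1a (chromosome 12, 75008854 to 75048517) stood at 41.4 FPKM (dHET) and 47.6 (dKO) in the P2.5 pair and at 61.1 and 59.7 in the E15.5 pair. The genotype changes were 0.20 and -0.034, and both E15.5 libraries lay above both P2.5 libraries. Hif3a encodes an alpha subunit whose short forms hold back the others. The E15.5 libraries held 33.7 FPKM (dHET) and 36.9 (dKO), a change of 0.13. The P2.5 row listed 3.98 FPKM (dHET) and 4.32 (dKO) under a flag of failure that 27 rows of that table carry, and it was left out there.

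The secreted members were near their control level at both stages. Vegfa, the main growth factor of blood vessel cells, stood at 72.3 FPKM (dHET) and 78.6 (dKO) in the P2.5 pair and at 70.2 and 66.8 in the E15.5 pair. Its changes were 0.12 and -0.071, the first of which turned to -0.052 after rescaling to a common sum. The 95% interval implied by the authors' deposited values for its log2 fold change ran from -0.52 to 0.76 for P2.5 and from -0.43 to 0.28 for E15.5. Adm, which encodes the vasodilator adrenomedullin, stood at 4.69 FPKM (dHET) and 5.44 (dKO) in the P2.5 pair and at 3.31 and 3.67 in the E15.5 pair, with dKO the higher library at both stages (0.18 and 0.12). Its implied intervals were wider than those of Vegfa, from -0.59 to 1.01 for P2.5 and from -0.47 to 0.77 for E15.5.

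Bnip3, a mitochondrial outer membrane protein that promotes mitophagy, was lower in dKO at both stages, the single member of which this held, although Egln1 and Vegfa joined it after rescaling to a common sum. The P2.5 libraries held 12.4 FPKM (dHET) and 9.25 (dKO), a change of -0.39. The E15.5 libraries held 27.5 and 22.1 FPKM, a change of -0.30. Of all genes tested, 15.5% had an absolute change at least this large for P2.5 and 6.69% for E15.5. The authors' deposited tables give p of 0.19 and 0.0653 for the respective stages, neither with a significant call. Its values are uncertain, since 94.2% of its transcript has a copy on chromosome 14 at 97.9% identity.

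Ddit4 had the largest change of any member at P2.5. It encodes REDD1, an inhibitor of the growth kinase complex mTORC1. Its level was 10.7 FPKM (dHET) and 15.5 FPKM (dKO), a change of 0.49 or 1.41-fold, and 8.0% of genes tested had an absolute change at least as large. In the authors' deposited table the p was 0.0905. The E15.5 libraries held 11.8 FPKM (dHET) and 12.8 (dKO), a change of 0.11. In deposited FPKM, 3 of the 4 libraries lay between 10.7 and 12.8 and the P2.5 dKO library stood above them. This order depends on scaling between the 2 stages. After rescaling to a common sum, P2.5 against E15.5 was -0.076 in dKO and -0.32 in dHET, so the P2.5 dKO library no longer stood above the E15.5 one.

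Ndrg1 (chromosome 15, 66760880 to 66801203) had the largest change at E15.5. It encodes a stress-responsive cytoplasmic protein induced by low oxygen. Its E15.5 level was 15.3 FPKM (dHET) and 21.0 FPKM (dKO), a change of 0.43 or 1.35-fold, and 2.51% of genes tested had an absolute change at least as large. In the authors' deposited table its log2 fold change was 0.46 with an implied standard error of 0.17, p was 0.00639 and q was 0.369. The P2.5 libraries held 9.88 and 9.62 FPKM, a change of -0.035, or of -0.21 after rescaling to a common sum. Its dKO library was therefore above control at E15.5 and not at P2.5. Ndrg1 is also the member with the 8-base match shown above. Of 491 tested genes that hold the word of 8 bases, 17 had an E15.5 change at or above that of Ndrg1, and at P2.5 336 of 484 did. No such count was made for genes without the word, and the 2.51% above covers both directions. The median change of genes with that word was 0.096 in the P2.5 pair and 0.049 in the E15.5 pair, beside 0.065 and -0.010 for genes without it. Vegfa, with its 7-base match, was at 0.12 and -0.071.

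Ankrd37, a small ankyrin repeat protein raised by HIF, lay within 3.48 and 3.83 FPKM in all 4 libraries. Its changes were 0.088 (P2.5) and 0.020 (E15.5), the first of which was -0.056 after rescaling to a common sum. Its standard errors implied by the authors' deposited tables, 0.49 and 0.35, were the largest of the members at each stage.

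The stages were then set side by side within each genotype. The tables were normalized separately and differ in read layout, single reads at P2.5 and read pairs at E15.5, so stage and processing cannot be told apart. With that limit, Bnip3 and Ndrg1 were lower at P2.5 than at E15.5 in both genotypes. Bnip3 was at -1.09 in dHET and -1.17 in dKO on the log2 scale of FPKM + 1. These Bnip3 values are uncertain too, since 94.2% of its transcript has a copy on chromosome 14 at 97.9% identity. How reads of that copy were assigned under the 2 read layouts was not tested. Ndrg1 was at -0.58 in dHET, just under 1.5-fold, and at -1.05 in dKO. The dHET value falls short of the mark only through the added 1 FPKM, and with a pseudocount of 0.1 it was -0.62, past 1.5-fold. Hif1a was also lower at P2.5, by less than 1.5-fold, at -0.55 and -0.32, while Adm was higher, at 0.40 and 0.46. Vegfa (0.042 and 0.23), Egln1 (0.0012 and 0.30), Egln3 (0.21 and -0.21), Ddit4 (-0.12 and 0.27) and Ankrd37 (0.022 and 0.089) were closer to 0. Past 1.5-fold and lower at P2.5 were 1 of 9 members in dHET and 2 of 9 in dKO, against 12.5% and 10.6% of all genes, and no member was higher, against 11.6% and 14.3% (either direction: 24% and 24.8%). At 0.322 or more in either direction the counts were 4 and 3 of 9, against 49.5% and 50.4%, with Hif1a in dKO (-0.3215) just short of that mark and not counted. Rescaling to a common sum moved the median of all genes from -0.079 to -0.28 in dHET and from -0.013 to -0.36 in dKO. The dHET count at 1.5-fold was then 3, with Hif1a and Ndrg1 added. The dKO count was then also 3, with Hif1a added (-0.69). Vegfa, Egln1 and Ankrd37 then lay below 0 in both genotypes and Ddit4 in dKO, while Adm stayed above 0 (0.29 and 0.19) and Bnip3 below (-1.33 and -1.59). The row of Hif3a would stand at -2.80 and -2.83 if the failed P2.5 values were used. The stage and genotype comparisons share their libraries, so they are not independent of each other.

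**Figure D3:**
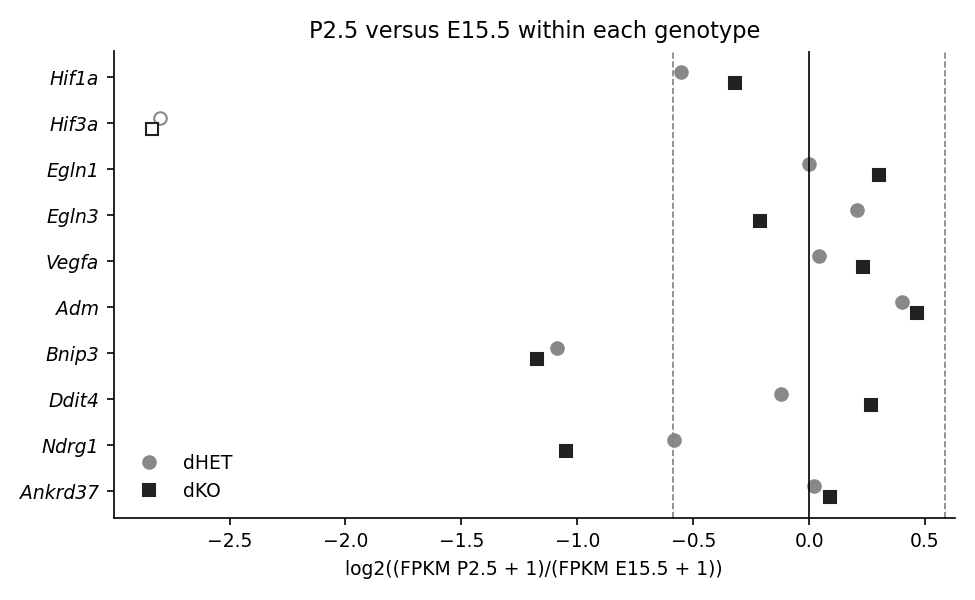
Change of each member from E15.5 to P2.5 within dHET (grey circles) and within dKO (black squares), as log2((FPKM P2.5 + 1)/(FPKM E15.5 + 1)), with dashed lines at 1.5-fold; open symbols are Hif3a, whose P2.5 row is flagged as failed. Bnip3 lies left of the line in both genotypes (-1.09 and -1.17) and Ndrg1 in dKO (-1.05).

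Genes that work with the members were read from 3 lists, also chosen with earlier results of these data known. Their counts beside the shares of all genes are therefore a description only. In the list of HIF machinery, 0 of 18 tested genes were past 1.5-fold at P2.5 and 0 of 19 at E15.5, and the list's medians were 0.0014 and -0.0048. Between stages 2 were higher and 2 lower at P2.5 in dHET, and 3 and 4 in dKO, of 19 tested. In either direction that is 21.1% and 36.8%, against 24% and 24.8% of all genes. Arnt, the partner of all alpha subunits, stood between 17.5 and 18.96 FPKM in all 4 libraries. Epas1, which encodes HIF-2 alpha, stood at 38.9 FPKM (dHET) and 33.2 (dKO) in the P2.5 pair and at 19.2 and 20.5 in the E15.5 pair. It thus stood higher at P2.5 than at E15.5 in both genotypes (0.98 and 0.67), opposite to Hif1a, and the FPKM ratio of Hif1a to Epas1 was 1.06 in the P2.5 dHET library and 3.18 in the E15.5 one. Egln2, the remaining hydroxylase gene, stood at 20.6 FPKM (dHET) and 27.0 (dKO) in the P2.5 pair (0.37), and its E15.5 change was 0.11. Vhl, which recognises hydroxylated HIF, was at 0.28 and 0.070, and Hif1an, which blocks the HIF activation domain, at -0.11 and 0.13. The HIF competitors Cited4 and Cited2 had the largest P2.5 values of this list, at 0.58 and -0.51 in opposite directions.

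Of the ligands, receptors and paralogs of the members, 0 of 19 tested genes were past 1.5-fold at either stage, with medians of 0.094 and 0.048. Between stages 4 were higher and 1 lower at P2.5 in dHET, and 5 and 2 in dKO, which is 26.3% and 36.8% in either direction, against the same 24% and 24.8%. The VEGF receptors Flt1 and Kdr were at -0.043 and 0.25 in the P2.5 pair and at -0.026 and 0.065 in the E15.5 pair. The co-receptor Nrp1 stood at 36.3 FPKM (dHET) and 47.8 (dKO) in the P2.5 pair and at 50.6 and 61.5 in the E15.5 pair, the higher value in dKO both times (0.39 and 0.28). The adrenomedullin receptor Calcrl was at -0.44 at P2.5 (7.97 to 5.62 FPKM) and 0.087 at E15.5, while its partner Ramp2 was at 0.21 and 0.0051. The Ramp2 values are uncertain, since 78.3% of its transcript matches another locus at 100% identity. Many of these receptors belong to endothelial cells, whose 8 markers, all above 1 FPKM in every library, summed to 361 FPKM (dHET) and 410 (dKO) in the P2.5 pair and to 264 and 283 in the E15.5 pair. Fewer cells of a type and less RNA per cell cannot be told apart in whole hearts, and the part of endothelial content in these values was not tested. Bnip3l, the paralog of Bnip3, was at -0.13 and -0.10 between genotypes and, like Bnip3, lower at P2.5 than at E15.5 (-0.58 in dHET and -0.61 in dKO).

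Among other described HIF targets, 4 of 41 tested genes were at least 1.5-fold higher in dKO at P2.5 and 0 lower, against 3.4% and 1.33% of all genes. The 4 were the lactate exporter Slc16a3 (1.57), the mitochondrial protein Fam162a (0.95), the carbonic anhydrase Car9 (0.69) and the pyruvate dehydrogenase kinase Pdk3 (0.61). Slc16a3 stood at 7.27 FPKM (dHET) and 23.5 (dKO), and Fam162a at 108 and 210, and the authors' deposited table gives q of 0.000193 and 0.0806 for the pair. Erythroid markers, of which 3 of 7 were at 1 FPKM or more in either P2.5 library, summed to 227 FPKM (dHET) and 404 (dKO) there, and their part in these values was not tested. Car9 lay between 0.492 and 1.76 FPKM in all 4 libraries. Pdk3 lies on the X chromosome, and the P2.5 pair differed in sex. With a pseudocount of 5 the count was 2. It was 3 after centring on the median change of all genes or with quantile normalization. With filters of 5 and 10 FPKM it was 3 of 31 and 3 of 24 tested genes. At E15.5 0 of 42 were higher and 1 was lower (2 with a pseudocount of 0.1 or after rescaling), Lox, which crosslinks collagen and elastin and stood at 24.9 FPKM (dHET) and 9.75 (dKO), a change of -1.27; 0.487% and 0.726% of all genes were past the fold in those directions. The list's median was 0.16 in the P2.5 pair and 0.024 in the E15.5 pair. In the stage comparison 16 of 42 were at least 1.5-fold lower at P2.5 in dHET and 11 in dKO, against 12.5% and 10.6% of all genes, and 1 and 4 were higher, against 11.6% and 14.3%. In either direction the list's shares were 40.5% and 35.7%. Slc2a1, the glucose transporter of the fetal heart, named after its values were seen, had 57.5 FPKM at E15.5 and 9.30 at P2.5 in dHET (-2.50), and 68.1 and 13.0 in dKO (-2.30).

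**Figure D4:**
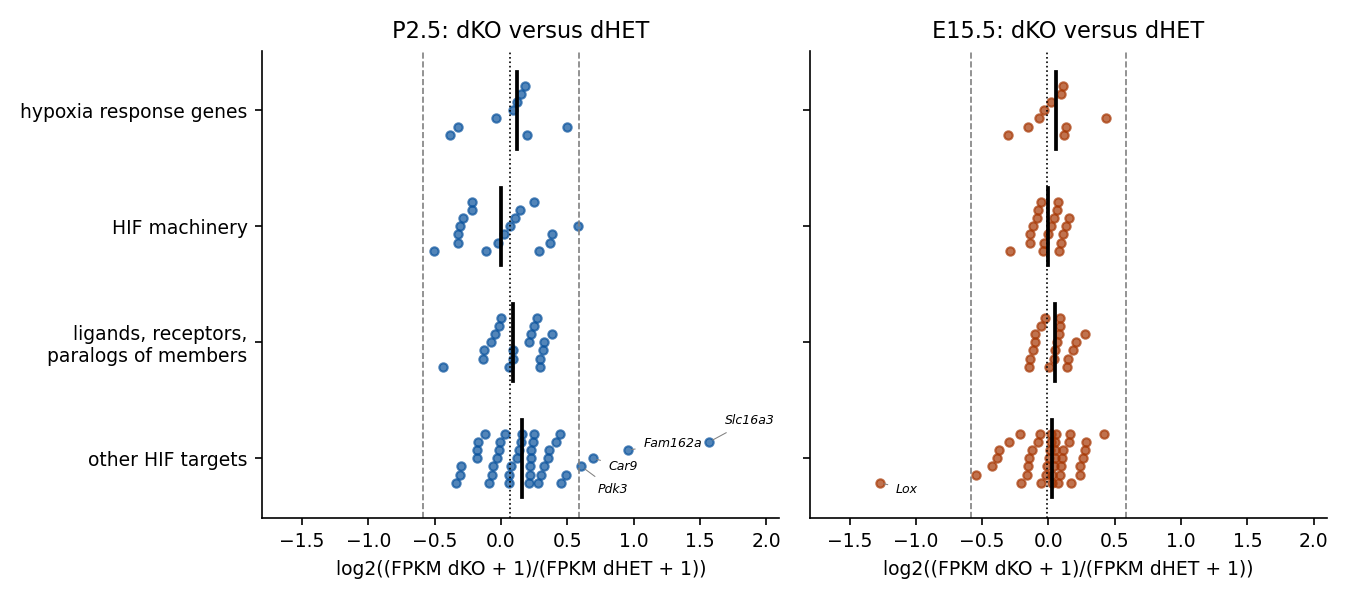
Change between dKO and dHET, as log2((FPKM + 1)/(FPKM + 1)), at P2.5 (left) and E15.5 (right) for the hypoxia response genes and 3 lists of pathway genes; each point is a gene, black bars are list medians, the dotted line is the median of all genes tested and dashed lines mark 1.5-fold. Named points are the 4 HIF targets past 1.5-fold at P2.5 and Lox at E15.5.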

How the data were processed

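Poly-A RNA of whole hearts was sequenced in 4 libraries, 1 per stage and genotype. The authors' deposited values are FPKM, with their own log2 fold changes, p-values and q-values. The submitters' processing notes name TopHat, Bowtie, Cufflinks and the build mm9, without versions. Commas had displaced 86 rows of each stage's file, which were realigned. Rows with status OK or NOTEST were used. Genes with at least 1 FPKM in either library were compared as log2 of FPKM + 1, and 1.5-fold was the mark for a count. Rescaling to a common sum raised all values before the 1 was added, so the addition then weighed less. There are no replicates, so nothing was tested; the calculation was tested on simulated data. The standard error implied by the authors' values is their log2 fold change over their statistic, and the 95% interval is 1.96 of these on either side. Their fold change is taken without the added 1 FPKM, so its scale differs slightly from that of the changes, most for low genes. Scaling totals came from the FPKM of 1 fragment in genes with 1 annotated transcript; 78.4% to 80.3% of values of 1 to 5 fragments lay within 0.1 of a whole number. Fragments behind a value are approximate and use the longest transcript. Copies were sought by aligning transcripts to NCBIM37 at 90% identity or more. Among the list genes, Ero1l, Ldha, Mif, Pgk1, Ramp2, Siah1a, Tceb1 and Tceb2 had a copy over most of their transcript and were counted all the same. The members and lists were chosen with earlier results of these data known. Named genes are all members, the 4 largest changes of each list per stage and 10 fixed pathway genes; not all are printed. The work used Python 3.11.15 and pandas 2.3.3.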

Additional observations from a re-analysis of the deposited data

Results flagged for a closer look

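For 5 members the change between dKO and dHET had opposite signs at the 2 stages. The share of all genes with opposite signs was not computed, so this count is not a result about the members. Of all genes tested, 60.7% were higher in dKO at P2.5 and 47.6% at E15.5. Some of the opposing values were very small, such as -0.034 for Hif1a at E15.5 and -0.035 for Ndrg1 at P2.5. With 1 library per group the difference between stages was not tested. The P2.5 change minus the E15.5 change was -0.47 for Ndrg1 and -0.42 for Egln3, which were lower in dKO at P2.5 and higher at E15.5. It was 0.30 for Egln1, 0.23 for Hif1a and 0.19 for Vegfa, which were higher at P2.5 and lower at E15.5. After rescaling to a common sum, Egln1 and Vegfa were lower in dKO at P2.5 as well.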

How the results depend on the processing

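No paired analysis was possible because each group had 1 library, and for the same reason no library could be left out. Of the summary values 172 stayed within their tolerance and 20 moved, and of the single-gene values 330 and 7. These tallies overstate stability, because the filters and the use of rows of any status cannot alter a single gene's value. Signs of small values were not stable. Rescaling to a common sum turned the members' median from 0.12 to -0.052 in the P2.5 pair and from 0.0012 to -0.19 between stages in dHET. It also turned Egln1, Vegfa and Ankrd37 in the P2.5 pair and between stages in both genotypes, and Ddit4 between stages in dKO. Quantile normalization turned Vegfa in the same 3 comparisons, Egln1 between stages in dHET and both stage medians, which filters of 10 FPKM or rows of any status also turned, and a filter of 5 FPKM in dHET. The E15.5 median kept its sign under all alternatives run. The tolerance for a change was the standard error implied by the authors' values and for a count 1.5 times. A median was held to the median of the members' standard errors, so its turn from 0.12 to -0.052 counted as within tolerance. With a lower mark of 0.322 on the log2 scale, 3 members passed in the P2.5 pair, 1 in the E15.5 pair and 4 between stages in dHET. In that last comparison 1 member passed at 1.5-fold, 2 passed with a pseudocount of 0.1, with quantile normalization or with rows of any status, and 3 after rescaling to a common sum. Rescaling also gave a members' median of -0.23 between stages in dKO, where the value was 0.089. It gave counts in the P2.5 pair of 1 for the HIF machinery and 1 for the partners, and in the E15.5 pair of 2 for the other targets. Rescaling raised all values before 1 was added, so that addition also weighed less, and these effects were not separated. The E15.5 libraries had nearly equal sums before rescaling, 231586 FPKM (dHET) and 231250 (dKO). A pseudocount of 0.1 gave 1 for the machinery (P2.5) and 2 for the other targets (E15.5). A pseudocount of 5 gave 2 other targets (P2.5), 3 partners between stages in dHET in place of 5, and 3 machinery genes and 9 other targets between stages in dKO in place of 7 and 15. At 10 FPKM or more the partners in dHET numbered 3 and the other targets in dKO 7, and quantile normalization gave 3 partners in dHET. Alternatives for the pathway lists were chosen after seeing the data. Depth limits Adm and Ankrd37 most.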

Other observations

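Over the 4 libraries, the genes nearest to Ndrg1 in their pattern of log2(FPKM + 1), each centred on its own mean, were Nedd4l, Gt(ROSA)26Sor and Slc25a36, at Euclidean distances of 0.066, 0.097 and 0.11 among 10162 genes. Nedd4l stood at 6.84 FPKM (dHET) and 6.72 (dKO) in the P2.5 pair and at 10.9 and 14.2 in the E15.5 pair. The genes nearest to Vegfa were Inppl1, Brap and Aggf1, at distances of 0.022, 0.022 and 0.024; Inppl1 lay between 39.1 and 45.1 FPKM in all 4 libraries. With 4 libraries from 2 tables normalized separately, such likeness is a description only.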
